A study of Mus musculus with 8 samples.

Results

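The semaphorin, plexin, ephrin, Eph and netrin, Slit and Robo guidance genes were examined in single endothelial cells (ECs) of the adult mouse heart, with and without a myocardial infarction (MI). Members were taken by gene symbol alone, as Sema, Efna, Efnb, Epha, Ephb, Robo, Slit or Ntn followed by a number, or a symbol beginning with Plxn or Unc5. Of 16791 genes counted, 57 matched, and 55 of these are guidance genes: 17 semaphorins, 9 plexins, 8 ephrins, 11 Eph receptors, 2 Unc5 and 4 Robo receptors, 2 Slits and 2 netrins. Unc50, which is not a netrin receptor, and Plxna4os1, a long non-coding RNA at chr6:32511073-32515576 on the strand opposite Plxna4, matched by letters alone and were kept out of the counts.

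All mice were adult and carried Pdgfb-iCreERT2 and R26R-Brainbow2.1, a tamoxifen-inducible Cre driven in cells that use the Pdgfb promoter together with a multicolour Confetti reporter. All 8 received a single intraperitoneal dose of tamoxifen at 150 mg/kg and were used 21 days later. In the 4 MI mice (244, 250, 255 and 256) the coronary artery was ligated 14 days after tamoxifen and the heart was taken 7 days after ligation. The 4 healthy mice (227, 228, 239 and 240) had no operation, so that MI and surgery cannot be told apart. Confetti-positive, CD31-positive, podoplanin-negative cells were sorted, so that ECs outside the labelled lineage were not sought. Each mouse gave 1 10X Genomics library, and the libraries also held cells of other types, removed as described below.

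Guidance cues were first described in growing axons, and the same ligand and receptor pairs act in blood vessels. Class 3 semaphorins are secreted and signal through plexins with neuropilin co-receptors, whereas the other vertebrate semaphorins are membrane-bound and bind plexins directly. Ephrins and Eph receptors are both held in the cell membrane and signal into both cells that touch. Ephrin-B2 and EphB4 are the classic markers that set arterial apart from venous endothelium, Unc5b is a netrin receptor of arteries and sprouting tips, and Robo4 is a Robo receptor of endothelium that stabilises the vessel wall.

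The count table held 31028 cells. Barcodes shared between libraries carried nearly the same counts in 2333 cells: 2030 cells of Healthy 228 (55.3% of that library) were copies of cells of Healthy 239, 301 cells of Healthy 227 (10.9%) were copies of cells of Healthy 228, and 2 were shared by Healthy 239 and 240. The copies were removed, as were a further 2027 cells rich in haematopoietic, mural, fibroblast, platelet or haemoglobin transcripts, which left 26668 ECs. These numbered 1588 to 3554 per healthy mouse and 3371 to 4765 per MI mouse. Depth differed between the groups, with 4838594 to 7576309 unique molecular identifiers (UMIs) in the ECs of a healthy mouse and 14264338 to 23562315 in those of an MI mouse. Levels are given as normalised UMI counts (CPM, scaled to 1000000 UMIs) of all ECs, or of the ECs of a class, of a mouse. Within the retained ECs, endothelial genes summed to 5209 to 5568 CPM in healthy and 5012 to 5182 CPM in MI mice, while 18 haematopoietic genes summed to 25 to 170 CPM in healthy and 297 to 518 CPM in MI mice. All 18 had a higher mean in MI and none was at 0. The part of these residual transcripts in the results was not tested, and for any gene fewer cells of a type and less RNA per cell cannot be told apart in a sum.

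ECs were placed in classes by a single marker: 2644 held Gja4 (arterial), 5968 Car4 (capillary), 2321 Apln (sprouting) and 1155 Nr2f2 (venous), with no other of these markers, and 439 were rich in Plvap. A further 4281 ECs held several markers (5.2% of healthy and 23.3% of MI ECs) and 9860 held none (47.2% and 30.1%), so that the classes left out unlike shares of the groups. None of the guidance genes was used to form the classes. Of other known genes, 7 of 7 arterial and 6 of 6 capillary genes peaked in the class of that name, and 4 of 5 Plvap-class genes and 3 of 6 venous genes did so. Of 8 genes of sprouting cells only Adm and Trp53i11 were highest in the Apln class, against 5 in the Plvap-high class, and the class is therefore called Apln-positive here. The Plvap-high class held 4 healthy cells and 435 MI cells, so that its levels come from MI mice alone. For each class, sums per mouse were compared with the mean of the other classes by edgeR with the mouse as a block, over 10110 genes of which 26 were members. The mean of the other classes includes arterial cells, so that a member with a high arterial level can be called lower in each other class. The filter on low counts needed 8.75 CPM in at least 4 class sums. Efna5 reached this in 6 arterial sums alone, Sema3d in 5 venous and 1 Apln-positive sum and Sema3a in 3 venous and 1 Plvap-high sum, so that these 3 members entered through the class in which they were high. Their levels are given with no test, and they are left out of the counts of calls below, which cover the other 23 members. Ntn1 reached the minimum in 7 arterial, 7 venous and 2 Plvap-high sums, and Plxnb2 in 7 venous, 4 Plvap-high and 2 arterial sums. Neither did so in a capillary or Apln-positive sum, so that both entered through the classes in which they were called higher. The rule sets apart entry through 1 class only, and their calls therefore stay in the counts but cannot be read apart from the filter. With classes formed in cells thinned to 1000 UMIs, 14 members were left by the same rule, and the numbers called were 8 for arterial, 5 for capillary, 6 for Apln-positive, 5 for venous and 4 for Plvap-high cells. In healthy mice alone, fewer members were called for arterial, capillary and Apln-positive cells than in all mice, with the numbers given in the last section. Healthy mice gave no Plvap-high sums, so that there the mean of the other classes leaves out Plvap-high cells. Differences in healthy mice and in all mice are therefore not like for like.

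Arterial cells differed from the other classes for 14 of 23 members (9 higher, 5 lower), against 32.4% of all genes tested (16.1% higher, 16.3% lower) and 32.3% of the genes left when those that entered through 1 class were set apart. The higher members included contact ligands of the ephrin family, secreted and anchored semaphorins, and a netrin receptor. Efnb2, the ephrin-B2 ligand, measured 149 CPM in the lowest, 187 CPM in the median and 244 CPM in the highest of the 8 arterial sums, against medians of 67.9 CPM in capillary, 34.6 CPM in Apln-positive, 34.4 CPM in venous and 44.8 CPM in Plvap-high cells. No sum of another class exceeded 103 CPM, so that arterial and other cells did not overlap, and the difference was 2.1 ± 0.07 on the log2 scale (SE, adjusted p = 2.3e-27). Unc5b, the netrin receptor, measured 118, 168 and 184 CPM as its lowest, median and highest arterial sums, against medians of 74.2 CPM in capillary, 51 CPM in Apln-positive, 26.3 CPM in Plvap-high and 19.8 CPM in venous cells (2.06 ± 0.08, adjusted p = 8.9e-26). Sema3g, a secreted class 3 semaphorin, was highest in this class in 8 of 8 mice, with arterial sums from 164 to 333 CPM and no more than 35.3 CPM in any other class sum (4.47 ± 0.11, adjusted p = 2.7e-32). Sema7a, a semaphorin anchored to the membrane by a lipid, measured 173, 212 and 232 CPM in arterial and 24.5, 45.3 and 51.9 CPM in venous sums. Its arterial sums lay above, and its venous sums below, those of each other class. Efna1, an ephrin-A ligand, measured 286 to 357 CPM in arterial cells and at most 228 CPM elsewhere (0.94 ± 0.05, adjusted p = 6.2e-20).

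The remaining members with high arterial levels were less abundant or less separate. Efna5, another ephrin-A ligand, gave 157 UMIs over the 8 arterial sums, against 4 in capillary, 7 in Apln-positive, 1 in venous and 5 in Plvap-high cells, and at most 4.42 CPM in any sum outside the arterial class. Epha4, an Eph receptor that binds ephrins of both families, was highest in arterial cells in 8 of 8 mice among the 4 classes that all mice had, with a median of 55.2 CPM against 34.9 CPM in capillary cells (arterial difference 1.17 ± 0.11, adjusted p = 7.1e-12). Ntn1, the netrin-1 ligand, was higher in both arterial (1.15 ± 0.19) and venous cells (1.42 ± 0.22) and lower in capillary (-1.60) and Apln-positive cells (-1.03). It entered through the arterial and venous sums, so that these calls cannot be read apart from the filter. Its median was 13.7 CPM in arterial, 20.9 CPM in venous and 2.87 CPM in capillary sums. Efnb1, also called higher in arterial cells (0.24), was not called without MI 250. Its difference was -0.06 in healthy mice alone, where the other classes did not include Plvap-high cells, in which Efnb1 was low. The 5 members lower in arterial cells included Sema6b (-0.50), Ephb4 (-0.30) and Plxnd1 (-0.23, not called without MI 256). Sema3a and Sema3d, which were not tested here, reached no more than 0.554 and 0.575 CPM in the 8 arterial sums. Pericyte and smooth muscle genes summed to 131 CPM in arterial, 146 CPM in Plvap-high and 65 to 74 CPM in capillary, Apln-positive and venous cells, and fibroblast genes to 62 CPM in arterial and 11 to 33 CPM in the other classes. Cells set aside as pericyte or smooth muscle carried 154 CPM of Sema3g and 112 CPM of Efnb2, those set aside as fibroblasts 101 CPM of Unc5b, and the part of such transcripts in the arterial values was not tested.

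**Figure D1:**
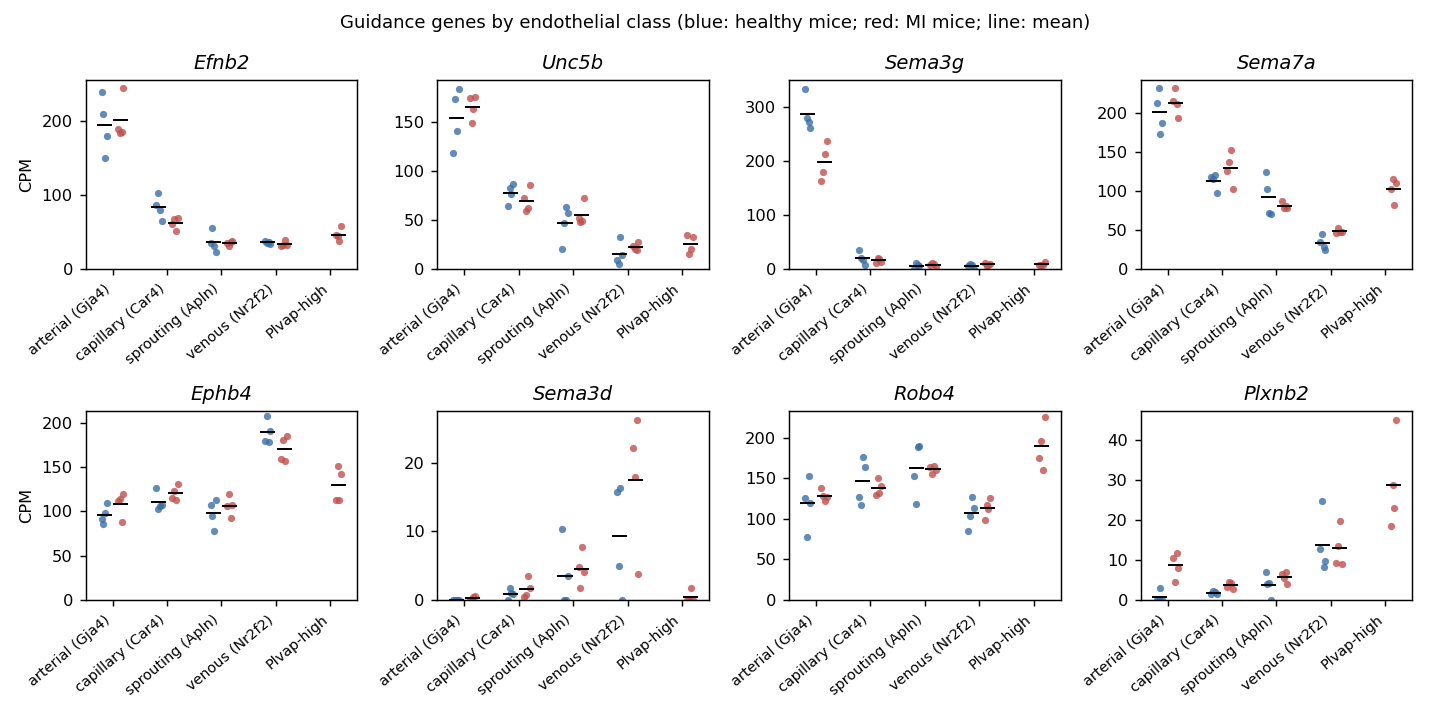
CPM (y axis, linear, from 0) of 8 guidance genes in 5 endothelial classes (x axis) for each healthy mouse (blue) and MI mouse (red), with lines at the group means. Efnb2, Unc5b, Sema3g and Sema7a stand highest in arterial cells in both groups, Ephb4 and Sema3d in venous cells, and Plxnb2 in Plvap-high cells of MI mice.

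Because Efnb2, Unc5b, Sema3g and Epha4 shared a higher arterial level and Ephb4 stood out in veins, the 250 bases before the RefSeq transcription start of each are shown (GRCm38.p6, 5′ to 3′ on the strand of the gene). Capitals mark matches on either strand to TGGGAA, the core read by RBPJ, the DNA-binding partner of Notch, to ACAAT, the core of SOX factors, or to ACGTG, the core of hypoxia-inducible factors.
Efnb2, chr8:8661243-8661492, minus strand: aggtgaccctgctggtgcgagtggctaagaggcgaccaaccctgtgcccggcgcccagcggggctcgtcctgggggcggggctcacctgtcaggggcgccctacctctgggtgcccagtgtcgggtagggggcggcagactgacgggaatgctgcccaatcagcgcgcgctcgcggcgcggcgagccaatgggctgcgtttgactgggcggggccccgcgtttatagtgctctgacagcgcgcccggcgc
Unc5b, chr10:60831582-60831831, minus strand: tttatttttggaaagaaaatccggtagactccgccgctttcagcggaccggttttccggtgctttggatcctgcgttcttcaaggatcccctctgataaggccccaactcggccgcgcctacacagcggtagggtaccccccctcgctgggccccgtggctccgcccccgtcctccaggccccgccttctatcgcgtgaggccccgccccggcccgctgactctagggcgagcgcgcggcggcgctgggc
Sema3g, chr14:31217623-31217872, plus strand: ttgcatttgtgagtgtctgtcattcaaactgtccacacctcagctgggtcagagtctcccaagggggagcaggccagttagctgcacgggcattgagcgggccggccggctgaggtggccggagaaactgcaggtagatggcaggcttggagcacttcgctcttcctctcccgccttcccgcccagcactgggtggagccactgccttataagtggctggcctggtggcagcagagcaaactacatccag
Epha4, chr1:77515089-77515338, minus strand: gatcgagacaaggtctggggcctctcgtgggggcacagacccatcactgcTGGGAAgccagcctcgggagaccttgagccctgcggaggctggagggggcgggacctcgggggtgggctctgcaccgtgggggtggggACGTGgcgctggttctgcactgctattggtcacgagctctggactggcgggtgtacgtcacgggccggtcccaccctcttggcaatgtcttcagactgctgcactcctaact
Ephb4, chr5:137349859-137350108, plus strand: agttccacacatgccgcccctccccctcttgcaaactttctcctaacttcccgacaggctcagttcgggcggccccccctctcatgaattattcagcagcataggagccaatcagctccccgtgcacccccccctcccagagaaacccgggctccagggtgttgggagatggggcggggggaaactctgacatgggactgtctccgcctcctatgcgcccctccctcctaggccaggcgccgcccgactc

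Among these 5 windows, Epha4 alone held a match, with 1 TGGGAA and 1 ACGTG. The first motif or its complement TTCCCA occurred in 21.6% of 32841 promoter windows of the mouse genome and in 11 of the 64 windows that belong to 48 members (17.2%). ACAAT or ATTGT occurred in 27.7% of all windows and in 11 member windows, and ACGTG or CACGT in 16.6% of all windows and 15.6% of member windows. All 5 sequences were rich in G and C, at 72.0% in Efnb2, 66.8% in Unc5b, 60.4% in Sema3g, 66.0% in Epha4 and 64.0% in Ephb4, against a median of 52.4% in all windows. Efnb2 and Unc5b each held 27 CG pairs, whereas Sema3g held 8, Ephb4 12 and Epha4 14. A match is a description of the letters only, and a window without one says only that these letters do not occur in it.

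Venous cells differed from the other classes for 12 of 23 members (4 higher, 8 lower), against 17.3% of all genes (9.89% higher, 7.41% lower) and 16.9% of those not set apart. Ephb4, the receptor of ephrin-B2, measured 157 CPM in the lowest, 181 CPM in the median and 208 CPM in the highest venous sum, and at most 152 CPM in any sum of another class. The venous sums thus lay above all others, and Ephb4 was highest in the venous class in 8 of 8 mice (0.60 ± 0.06, adjusted p = 7.7e-11). The other higher members, the ligand Ntn1 and the receptors Robo2 and Plxnb2, were at low counts, as were Sema3d and Sema3a, which are described with no test. Sema3d, a class 3 semaphorin, ranged from 0 to 26.3 CPM in venous sums with a median of 16.0 CPM, against medians of 3.79 CPM in Apln-positive and 0.948 CPM in capillary cells. Sema3a, a class 3 semaphorin that repels growing axons through neuropilin-1, gave 65 UMIs in venous sums, of which 62 were from MI mice, and 0 to 21.0 CPM. Robo2, a Slit receptor, was higher at 3.40 to 12.2 CPM (1.38 ± 0.36, adjusted p = 0.0035), but this call was lost without MI 255, as was that of Plxnb2 in venous cells. The venous Robo2 sums overlapped those of capillary (2.72 to 11.6 CPM) and Apln-positive cells (0 to 12.3 CPM). Among the 4 classes that all mice had, Robo2 was highest in venous cells in 4 of 8 mice. The lower venous members were chiefly those higher in arterial cells, Unc5b (-1.61), Sema3g (-1.49), Sema7a (-1.44), Efnb2 (-1.0), Epha2 (-0.90) and Efna1 (-0.67), together with Plxna2 (-0.60) and Robo4 (-0.47). The sort was for podoplanin-negative cells, a gate that removes lymphatic endothelium. A list of 6 lymphatic genes, none of them at 0, still summed to 349 CPM in venous cells and 44 to 115 CPM in the other classes, of which Ccl21a gave 267 CPM and Pdpn, the podoplanin gene, 2.97 CPM in venous cells. The part of lymphatic cells in the venous values was not tested.

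Capillary cells differed for 12 of 23 members (9 higher, 3 lower), against 27.1% of all genes (14.3% higher, 12.7% lower) and 27.3% of those not set apart. Efnb1, the ephrin-B1 ligand, measured 103, 127 and 193 CPM as its lowest, median and highest capillary sum and was highest in this class in 8 of 8 mice among the 4 classes (0.84 ± 0.07). Unc5b (0.70), Ephb1 (0.55), Sema7a (0.45) and Efnb2 (0.35) were moderately higher, and the call for Ephb1 was lost without MI 244 or MI 250. Epha4, also called higher (0.39), was not called without MI 244 or MI 250. Its difference was -0.10 in healthy mice alone, where the other classes did not include Plvap-high cells, in which Epha4 was low. The capillary medians of Unc5b, Sema7a and Efnb2 lay between their arterial and venous medians. The lower capillary members were Ntn1, Plxnb2 (-1.51) and Sema3f (-0.69). Of these, Ntn1 and Plxnb2 reached the filter minimum in 0 capillary sums and entered through other classes. Apln-positive cells differed for 14 of 23 members (5 higher, 9 lower), against 32.9% of all genes (17% higher, 15.9% lower) and 33.3% of those not set apart. Ephb1 (0.55), Epha2 (0.39), Robo4 (0.23), Plxnd1 (0.21) and Sema4c (0.21) were higher, and of these Epha2 and Sema4c were not called without MI 244 or MI 255, nor Ephb1 without MI 244. The lower members again included Sema3g (-1.43), Efnb2 (-0.95) and Sema6a (-0.74). Of those 4 classes, Robo4 was highest in Apln-positive cells in 8 of 8 mice, yet its sums of 119 to 190 CPM overlapped the 117 to 176 CPM of capillary cells.

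Plvap-high cells differed for 10 of 23 members (5 higher, 5 lower), against 18.4% of all genes (9.62% higher, 8.8% lower) and 18.6% of those not set apart. Plxnb2, the receptor of class 4 semaphorins, measured 18.6, 25.9 and 45.2 CPM as the lowest, median and highest of the 4 sums (1.68 ± 0.30, adjusted p = 2.7e-05). It entered through the venous and Plvap-high sums, so that this call cannot be read apart from the filter. Sema3f, a secreted ligand of neuropilin-2, measured 63.6, 84.4 and 89.0 CPM (0.79 ± 0.14, adjusted p = 2.7e-05), and Sema6b, a transmembrane ligand of class A plexins, measured 45.2, 47.3 and 49.7 CPM (0.73 ± 0.16, adjusted p = 0.0009). The highest Sema6b sum of another class was 43.4 CPM, and the Plvap-high sums rested on 34, 19, 56 and 7 UMIs, so that their separation is within the counting error of the last, MI 256. Sema6a (0.60 ± 0.10) and Robo4 (0.44 ± 0.08) completed the higher members, and Plxnb2, Sema3f, Sema6a and Sema6b were each highest in this class in 4 of 4 MI mice. Efnb1, at 41.5 to 51.6 CPM (34, 19, 47 and 8 UMIs), was lower, with no sum of another class under 54.3 CPM, and Sema3g (-1.42), Unc5b (-1.23), Epha4 (-0.79) and Efnb2 (-0.50) were also lower. The Plvap-high median of Efnb2 lay above those of Apln-positive and venous cells, and that of Sema3g, at 7.46 CPM, lay close to their 7.78 and 7.87 CPM, so that these members were lower against a mean that includes arterial cells. Without MI 255, which gave 208 of the cells, 6 members were called and Sema6b and Sema3g were not among them, and the Epha4 and Efnb2 calls were lost without MI 244, 250 or 255. Haematopoietic genes summed to 517 CPM in Plvap-high cells and 262 to 363 CPM in the other classes, and cells set aside as haematopoietic carried 51.8 CPM of Plxnb2. The part of these transcripts in the Plxnb2 values was not tested.

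**Figure D2:**
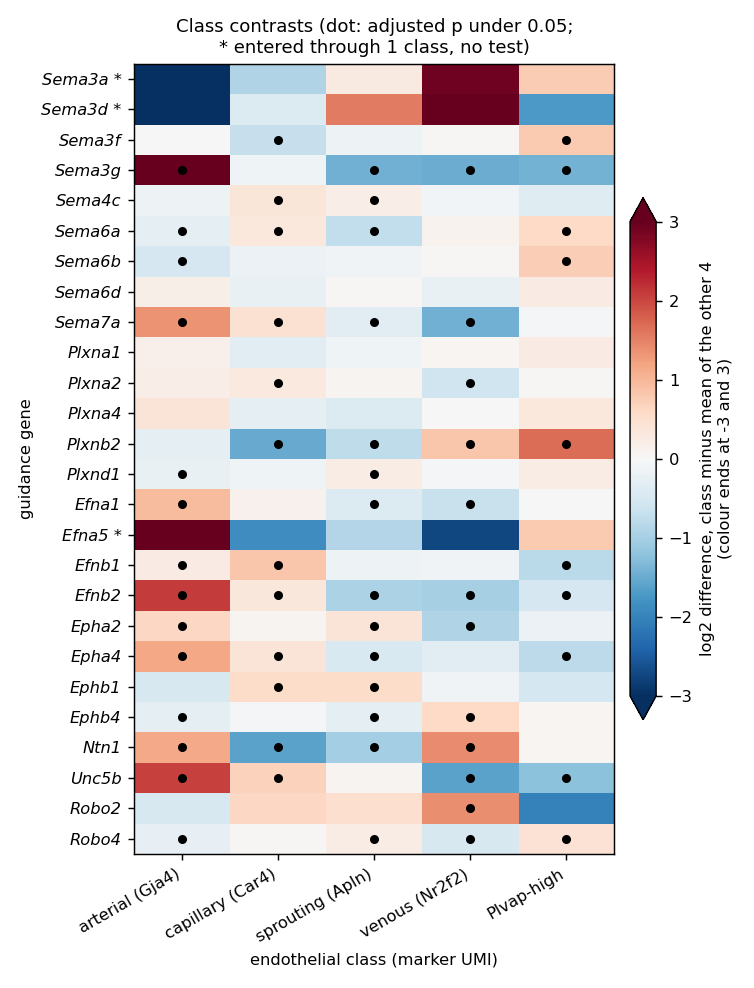
Log2 difference of each class from the mean of the other classes (colour scale, red higher and blue lower, ending at 3 on either side) for 26 guidance genes, with a dot where the edgeR adjusted p was under 0.05. Sema3g, Efnb2 and Unc5b are red in the arterial and blue in the venous column, and Efna5, Sema3a and Sema3d, marked with an asterisk, are shown with no test because they entered through 1 class.

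In all ECs together, 29 of the 55 members had enough UMIs to pass the filter on low counts, with a minimum of 0.916 CPM. Efna4 and Sema3a reached this minimum in 4 MI mice but in only 0 and 1 healthy mouse, and thus could hardly have entered unless they were higher in MI. Their values are given with no test, which leaves 27 members. Of these, 11 differed between MI and healthy mice (40.7%, against 37.7% of the 12262 genes tested and 36.3% of those left when genes that entered through 1 group were set apart), with 5 higher (18.8% of all genes) and 6 lower in MI (18.9%). The CPM of the groups did not overlap for 5 higher and 4 lower members, against 35.7% of all genes (23.2% higher, 12.4% lower). The median log2 difference was -0.09 over the 27 members and -0.03 over the genes not set apart. By family, semaphorins accounted for most calls, with 4 of 9 higher and 3 lower, whereas 1 of 5 plexins changed in each direction, 1 of 4 ephrins and 1 of 4 Eph receptors were lower, and neither Unc5 receptor, neither tested Robo nor the tested netrin was called. Genes of the classes also differed in the sum of all ECs, with the 6 capillary genes at 23024 to 29162 CPM in healthy and 15607 to 20901 CPM in MI mice and the 8 sprouting genes at 1832 to 2074 CPM and 2617 to 3037 CPM. The part of such shifts between classes in the differences of all ECs was not tested for members too low to be examined within a class.

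Of the semaphorin ligands, Sema3f (chr9:107681500-107710475) rose in MI. It measured 25.8, 19.2, 22.4 and 17.4 CPM in healthy mice 227, 228, 239 and 240 and 55.0, 52.0, 46.0 and 48.2 CPM in MI mice 244, 250, 255 and 256. Each MI mouse was above each healthy mouse, and the mean rose 2.37-fold from 21.2 ± 3.69 to 50.3 ± 4.0 CPM (SD, n = 4 each; log2 1.16 ± 0.12, adjusted p = 0.00026). With each cell thinned to 1000 UMIs, the share of ECs with a Sema3f UMI averaged 2.20% ± 0.31 (SD) over the 4 healthy and 5.07% ± 0.76 over the 4 MI hearts, without the 583 healthy and 0 MI ECs that held under 1000 UMIs, against 0.90% of cells set aside as haematopoietic. Without thinning the shares were 5.01% and 20.6%.

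Sema6d, a transmembrane semaphorin that signals through Plxna1, measured 41.2, 38.0, 47.5 and 52.1 CPM in healthy and 66.9, 60.4, 66.5 and 62.0 CPM in MI mice. The groups did not overlap (log2 0.43 ± 0.10, adjusted p = 0.0087). Sema6b rose from 23.5, 25.4, 27.2 and 27.3 CPM to 32.1, 37.7, 33.2 and 30.8 CPM, again without overlap, but its adjusted p of 0.0388 passed 0.05 when any of 7 of the 8 mice was left out, reaching 0.112, and was 0.0788 in cells thinned to 1000 UMIs. Sema3d gave 17, 8, 9 and 17 UMIs in healthy and 119, 95, 185 and 73 UMIs in MI mice, or 1.98 and 5.70 CPM on average (log2 1.44 ± 0.32, adjusted p = 0.00694). Sema3a, with 3, 4, 6 and 8 UMIs in healthy and 67, 56, 101 and 42 UMIs in MI mice, averaged 0.795 and 3.21 CPM. In both genes MI 255 was the highest mouse, and for Sema3d all MI mice exceeded all healthy mice. Both had their highest median in the venous class, and the 6 venous genes summed to 192 to 290 CPM in healthy and 349 to 656 CPM in MI mice, with MI 255 highest and 5 of the 6 higher in MI on average. MI 255 also gave the most venous cells, 313 against 167 to 215 in the other MI mice and 49 to 83 in healthy mice. Cells set aside as fibroblasts carried 27.8 CPM of Sema3d and 6.94 CPM of Sema3a, against 4.81 and 2.64 CPM in all ECs together, and the 7 fibroblast genes summed to 10.3 to 29.2 CPM in healthy and 22.4 to 36.8 CPM in MI mice, with MI 255 highest. The part of fibroblast transcripts in these values was not tested.

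The semaphorins that fell were Sema4c, Sema3g and Sema6a. Sema4c, a transmembrane ligand of Plxnb2, measured 64.8, 62.0, 71.1 and 85.1 CPM in healthy and 57.6, 60.8, 44.5 and 49.6 CPM in MI mice, which came close but did not overlap (log2 -0.50 ± 0.13, adjusted p = 0.0127). In thinned cells Sema4c was not called (log2 -0.34, adjusted p = 0.133). Sema3g measured 62.2, 55.2, 66.7 and 39.1 CPM in healthy and 29, 35, 39 and 49.7 CPM in MI mice, so that MI 256 lay above Healthy 240 (log2 -0.63 ± 0.19, adjusted p = 0.0277). Sema6a, a transmembrane ligand of Plxna2 and Plxna4, measured 158, 155, 113 and 122 CPM in healthy and 87.6, 103, 93.3 and 131 CPM in MI mice, with MI 256 above 2 healthy mice (log2 -0.48 ± 0.16, adjusted p = 0.035). The last 2 calls were lost without 1 of 6 different mice for Sema3g and 1 of 5 for Sema6a, at adjusted p of up to 0.0739 and 0.0984. They were also lost for Sema3g in thinned cells (log2 -0.41, adjusted p = 0.115), for Sema6a without TMM scaling (-0.40, 0.0586), and for both without Healthy 227 and 228, the libraries with copied cells (-0.55, adjusted p = 0.142 for Sema3g and -0.26, 0.277 for Sema6a), where Sema6b was not called either (0.22, 0.162). Sema7a measured 103 to 122 CPM in healthy and 99.9 to 119 CPM in MI mice and did not pass the test (log2 -0.20, adjusted p = 0.091).

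**Figure D3:**
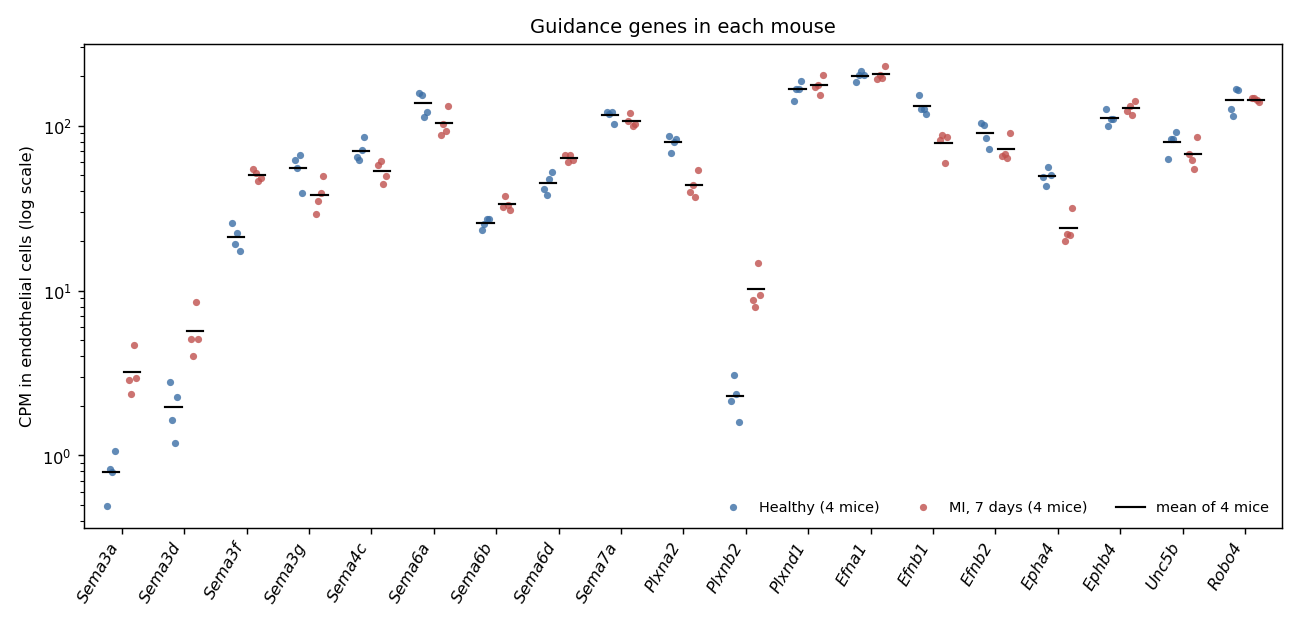
CPM in all ECs (y axis, log scale) for each healthy mouse (blue) and MI mouse (red) for selected guidance genes, with lines at the group means. For Sema3f, Sema6d and Plxnb2 each red point lies above each blue point, for Epha4, Plxna2 and Efnb1 below, and Sema3g overlaps.

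Among the semaphorin receptors, Plxnb2 and Plxna2 moved in opposite directions. Plxnb2 (chr15:89155549-89180788) gave 13, 15, 18 and 12 UMIs in healthy and 207, 188, 318 and 135 UMIs in MI mice, that is 2.1, 3.1, 2.4 and 1.6 CPM against 8.8, 8.0, 14.7 and 9.5 CPM. The mean rose 4.45-fold from 2.31 ± 0.623 to 10.3 ± 3.05 CPM (SD, n = 4 each; log2 2.09 ± 0.27, adjusted p = 0.000613), with MI 255 highest. MI 255 was also the mouse with the highest haematopoietic sum (518 CPM), and 5.90% of thinned cells set aside as haematopoietic held a Plxnb2 UMI, against 0.20% of healthy and 0.83% of MI ECs (0.57% and 4.77% without thinning). The part of residual haematopoietic RNA in this difference was not tested. Plxna2 (chr1:194618218-194816869), a receptor of class 6 semaphorins and, with neuropilins, of class 3, measured 86.5, 68.2, 79.9 and 82.9 CPM in healthy and 39.98, 43.6, 36.9 and 53.9 CPM in MI mice. All MI mice were below all healthy mice (79.4 ± 7.91 against 43.6 ± 7.41 CPM, log2 -0.95 ± 0.13, adjusted p = 0.000745). Plxnd1, the endothelial plexin that reads Sema3e and, with neuropilins, other class 3 semaphorins, measured 142, 167, 169 and 187 CPM in healthy and 173, 176, 154 and 204 CPM in MI mice, with a log2 difference of 0.00 (adjusted p = 0.985).

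Within the ephrin and Eph families both called members were lower in MI. Epha4 (chr1:77367185-77515088) measured 48.6, 43.4, 56.1 and 50.5 CPM in healthy and 20.1, 22.0, 21.6 and 31.9 CPM in MI mice. The groups were well apart, and the mean fell from 49.7 ± 5.24 to 23.9 ± 5.4 CPM (SD, n = 4 each; log2 -1.15 ± 0.15, adjusted p = 0.000744). Efnb1, on the X chromosome at chrX:99136130-99148991, measured 153, 127, 126 and 119 CPM in healthy and 82.6, 87.8, 59.9 and 85.8 CPM in MI mice, again without overlap (log2 -0.82 ± 0.13, adjusted p = 0.00174). Efnb1 was also called with Xist as a covariate, a check made because 1 healthy and 1 MI mouse had almost no Xist. Efna4, an ephrin-A ligand, gave 0, 2, 3 and 0 UMIs in healthy and 37, 34, 51 and 26 UMIs in MI mice, or 0.202 and 1.8 CPM on average.

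The arterial and venous pair Efnb2 and Ephb4 was not called. Efnb2 measured 104, 101, 83.9 and 72.6 CPM in healthy and 65.7, 67.7, 63.5 and 90.9 CPM in MI mice, with MI 256 above 2 healthy mice (log2 -0.42 ± 0.15, adjusted p = 0.0554). Ephb4 measured 99.8 to 126 CPM in healthy and 117 to 141 CPM in MI mice (log2 0.12, adjusted p = 0.343), and Efna1 184 to 216 CPM and 193 to 231 CPM (log2 -0.06, adjusted p = 0.643). The more abundant Unc5 and Robo receptors, Unc5b and Robo4, also overlapped between the groups. Unc5b measured 63.2, 83.7, 83.0 and 91.4 CPM in healthy and 67.9, 62.1, 55.1 and 85.5 CPM in MI mice (log2 -0.33, adjusted p = 0.119), and Robo4 measured 115 to 166 CPM and 140.5 to 147 CPM (log2 -0.08, adjusted p = 0.624).

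The remaining 35 members had means of at most 19.4 CPM in a group and 24.0 CPM in a class, with 1 to 2132 UMIs each. Of these, 9 could be tested, none of which was called. The 35 members were 8 semaphorins, 6 plexins, 4 ephrins, 9 Eph receptors, 3 Robos, both Slits, both netrins and Unc5a. No Slit was testable, at 11 to 55 UMIs over all mice and a group mean of at most 0.556 CPM. Ntn1 averaged at most 9.95 CPM in a group (log2 0.45, adjusted p = 0.161), and Robo2 had a log2 difference of -0.84 (adjusted p = 0.0583). Of the genes matched by letters alone, Plxna4os1 rose (log2 0.65 ± 0.13, adjusted p = 0.00446) and Unc50 fell (log2 -0.26, adjusted p = 0.0439). Reads of Plxna4os1 and of Plxna4 can be told apart only where strand was used in counting, which is not given in the sources used here. Cells set aside as haematopoietic carried 35.1 CPM of Plxna4os1, against 11.1 CPM in ECs.

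**Figure D4:**
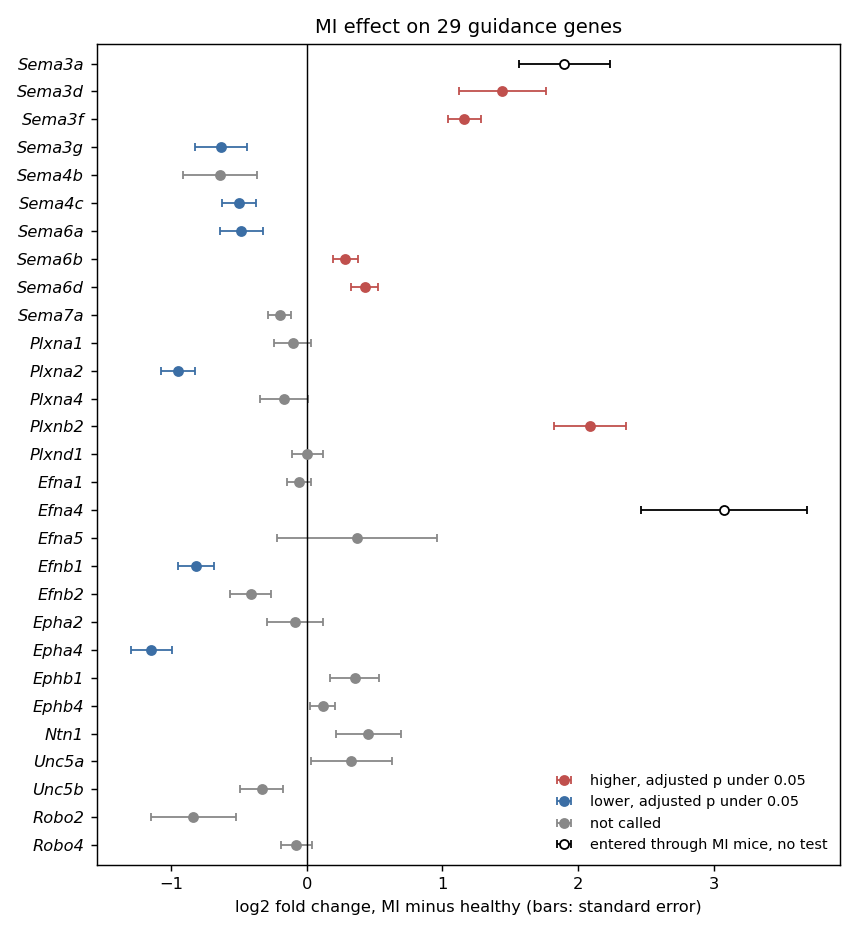
Log2 difference of MI from healthy mice in all ECs (x axis, bars are SE) for 29 guidance genes, coloured red (higher) or blue (lower) where the edgeR adjusted p was under 0.05 and grey elsewhere, with open points for Efna4 and Sema3a, shown with no test because they entered through the MI mice. Of those called, Plxnb2 and Sema3d lie farthest to the right and Epha4 and Plxna2 farthest to the left.

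To ask whether these differences were present in single classes, MI was compared with healthy mice within each class. In venous cells, with a filter minimum of 18.1 CPM, Epha4, Ntn1, Plxna4, Sema3f, Sema6d and Unc5b entered through 1 group, the other reaching the minimum in at most 2 mice, as did Ephb1 in arterial cells, and any values of these are given there with no test. Plxnb2, Sema3a, Sema3d and Efna4 had too few UMIs to be tested in any class. Of the members called in all ECs, 4 semaphorins were called in no class by edgeR. Sema6b was tested in 4 classes (adjusted p from 0.2 to 0.787, none with an unadjusted p under 0.05), Sema4c in 4 (0.0571 to 0.505, 3 with an unadjusted p under 0.05), Sema6a in 4 (0.0635 to 0.781, 2 of them) and Sema6d in 3 (0.164 to 0.714, 1 of them). Epha4 was called lower in each of the 3 classes where it was tested. In arterial cells it measured 65.6, 55.8, 80.6 and 90.3 CPM against 31.7, 34.9, 42.5 and 54.7 CPM, without overlap (log2 -0.93 ± 0.20, adjusted p = 0.00562). The difference was -0.72 ± 0.17 in capillary and -1.09 ± 0.25 in Apln-positive cells. In venous cells Epha4 measured 56.9, 19.8, 44.8 and 49.0 CPM in healthy and 17.5, 13.6, 9.9 and 24.1 CPM in MI mice, where Healthy 228 lay among the MI mice. Plxna2 fell in arterial (-0.83 ± 0.17), capillary (-0.95 ± 0.16) and Apln-positive cells (-0.78 ± 0.17), and in capillary cells its 92.6, 70.1, 84 and 89.8 CPM in healthy mice stood against 38.6, 44.7, 37.2 and 59.8 CPM in MI mice. In venous cells, where it was lowest, Plxna2 gave a log2 difference of -0.27 (adjusted p = 0.655).

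Sema3f rose in arterial (1.32 ± 0.23, adjusted p = 0.00157) and capillary cells (0.84 ± 0.19, adjusted p = 0.0101). In arterial cells it measured 36.8, 12, 21.9 and 15.7 CPM in healthy and 64.4, 52.6, 49.9 and 51.2 CPM in MI mice. In Apln-positive cells its difference of 0.42 was not called (adjusted p = 0.349). Sema3g, the arterial semaphorin, fell within arterial cells from 333, 279, 273 and 261 CPM to 164, 180, 213 and 238 CPM, and here the groups did not overlap (log2 -0.58 ± 0.14, adjusted p = 0.00969). Efnb1 fell in capillary (-0.50 ± 0.12) and Apln-positive cells (-0.62 ± 0.14). Efnb2 was called lower in capillary cells, at 86.5, 103, 79.6 and 65.2 CPM in healthy and 60.8, 67.2, 51.1 and 68.5 CPM in MI mice (log2 -0.48 ± 0.15, adjusted p = 0.0424), and was no longer called when any of 6 mice was left out. The edgeR test of whether its MI difference varied among the classes, described below, was not passed (adjusted p = 0.0769). In venous cells, Sema6d measured 41.1, 24.7, 16.3 and 9.8 CPM in healthy and 72.0, 55.3, 68.4 and 57.0 CPM in MI mice.

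In all, 4 of the 21 members not set apart were called in arterial cells, against 14% of all genes, with 1 higher (6.85%) and 3 lower (7.18%). In capillary cells 5 of 21 were called, against 19.8% of all genes, with 1 higher (9.71%) and 4 lower (10.1%). In Apln-positive cells 3 of 18 were called, against 5.67%, with 0 higher (2.01%) and 3 lower (3.66%), and in venous cells 0 of 11 were called by edgeR or by DESeq2, against 9.18% of all genes (4.27% higher, 4.91% lower), and 2 had an unadjusted p under 0.05 in either. With genes that entered through 1 group set apart, the shares of all genes called were 12.7% in arterial, 18.5% in capillary, 5.41% in Apln-positive and 7.89% in venous cells. Leaving out 1 mouse lost the capillary Epha4 call without MI 250 (adjusted p = 0.0563) and the Apln-positive one for 4 mice, as well as Efnb1 in Apln-positive cells for 5 mice and Plxna2 in those cells without Healthy 239 or 240. With at least 2 UMIs of the marker, no member was called by edgeR in Apln-positive cells, where 8 of 18 had an unadjusted p under 0.05. When classes were formed in cells thinned to 1000 UMIs, which leaves far fewer marked cells, Plxna2 was called in capillary cells and no member in the other classes by edgeR, where 1 of 14 arterial, 0 of 9 Apln-positive and 0 of 4 venous members had an unadjusted p under 0.05.

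**Figure D5:**
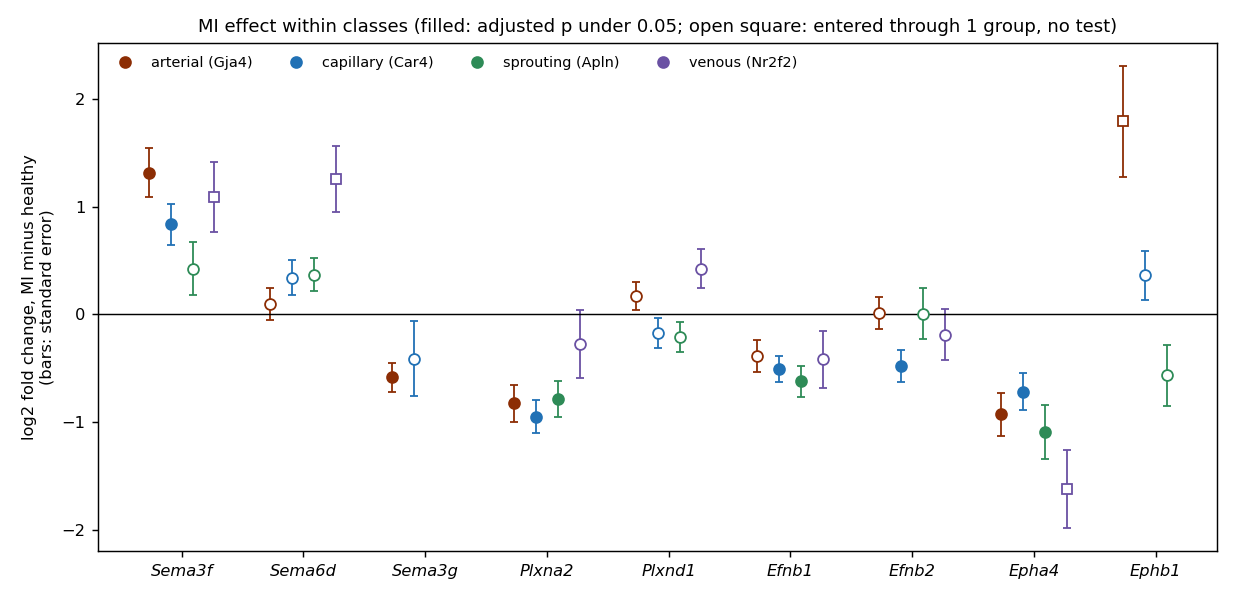
Log2 difference of MI from healthy mice within each of 4 classes (colours; y axis, bars are SE) for 9 guidance genes, with filled points where the edgeR adjusted p was under 0.05 and open squares where a gene entered through 1 group and was not tested. Epha4 lies below 0 in all 4 classes, filled in the 3 where it was tested, and Sema3f lies above 0, filled in arterial and capillary cells.

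Whether the MI difference itself varied among the 4 classes was tested by an interaction term, with 2 of 23 members called against 5.46% of all genes. For Plxnd1 (adjusted p = 0.0073) the MI difference exceeded that of capillary cells by 0.62 ± 0.16 in venous and 0.41 ± 0.13 in arterial cells, and differed by -0.01 ± 0.12 in Apln-positive cells. Plxnd1 measured 101, 168, 151 and 103 CPM in healthy and 197, 186, 168 and 198 CPM in MI venous cells, against 129, 175, 180 and 179 CPM and 146, 153, 130 and 184 CPM in capillary cells. Ephb1, a receptor of B-type ephrins, was also called (adjusted p = 0.0296), with a difference from capillary cells of -0.98 ± 0.37 in Apln-positive cells. It reached the minimum of this fit (7.57 CPM) in all 8 capillary and all 8 Apln-positive sums. In arterial cells it did so in 1 healthy and 4 MI mice, with 9 UMIs in healthy and 114 in MI arterial sums. In venous cells it did so in 2 healthy and 4 MI mice, and its arterial and venous terms are therefore not given. Neither interaction was called without Healthy 239 (adjusted p = 0.0681 for Plxnd1 and 0.455 for Ephb1), when 5 of 24 members tested had an unadjusted p under 0.05. In classes of thinned cells Plxnd1 was not called (adjusted p = 0.563) and Ephb1 could not be tested, and with at least 2 marker UMIs Ephb1 was not called (adjusted p = 0.175).

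Co-receptors and signalling partners of these families were read from a list of 37 genes, of which 35 were in the table and 30 passed the filter, Met and Vav2 through the MI mice. Of the other 28, in MI 3 were higher, 12 lower and 13 were not called, against 37.7% of all genes called (18.8% higher, 18.9% lower). Dpysl3, a cytoskeletal effector of semaphorin signalling, measured 28.9, 27.7, 34.7 and 35.9 CPM in healthy and 78.0, 69.6, 90.5 and 53.5 CPM in MI mice (log2 1.1 ± 0.15, adjusted p = 0.000798). Nrp1, the neuropilin-1 co-receptor of class 3 semaphorins and vascular endothelial growth factor, measured 1148, 1142, 1036 and 1189 CPM in healthy and 779, 945, 715 and 833 CPM in MI mice, without overlap (log2 -0.55 ± 0.10, adjusted p = 0.00275). Nck1, an adaptor of Eph receptors, measured 308 to 396 CPM in healthy and 223 to 230 CPM in MI mice (log2 -0.70 ± 0.08, adjusted p = 0.00042). Arhgef12, an exchange factor bound by B-type plexins, fell with a log2 difference of -0.73 ± 0.15, and Srgap2, a Slit-Robo GTPase-activating protein, with one of -0.53 ± 0.11. Arhgef15, an endothelial exchange factor, was called at -0.42 ± 0.13 (adjusted p = 0.0293), a call lost when any of 4 mice was left out.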

How the data were processed

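Single-cell RNA-seq was measured in 8 libraries, 1 per mouse. The deposited table held UMI counts per gene and cell, which the authors made with Cell Ranger on mm10 and filtered to cells with at least 400 genes and at most 20% mitochondrial counts. Neither normalised values nor the authors' clusters were used here.

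Members and gene lists were chosen with earlier results of these data known. Cells were called copies where a barcode shared by 2 libraries had at least 90% of UMIs matching, and the smaller was removed. Cells were removed above 5 marker UMIs per 1000 of another cell type (50 for haemoglobin), with at least 5 such UMIs. A class needed 1 UMI of its marker and none of the other markers, and Plvap-high needed 2 UMIs and 1 per 1000. No doublet caller was run, and cells with several markers were in no class. Classes with at least 20 cells in a mouse were summed. Counts summed per mouse were tested by edgeR 4.0.16 (R 4.3.3; TMM, filterByExpr, quasi-likelihood, Benjamini-Hochberg over all genes tested, threshold 0.05). Members that reached the filter minimum in fewer than 4 sums outside 1 class, or in all mice of 1 group and at most 2 of the other, were set apart with no test, a rule chosen after seeing the data. The class term of the interaction held 3 contrasts because Plvap-high cells lacked healthy sums. The methods were tested on simulated data. DESeq2 1.42.0, limma 3.58.1, thinning to 1000 UMIs, other gates and leaving out each mouse were alternatives.

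Values per mouse, or their range, are given for members with a mean of at least 20 CPM in a group. The same holds for members with a mean of at least 40 CPM in a class or called in MI. For partners called with a mean of at least 50 CPM, values per mouse, a range or a log2 difference are given. At most 5 such partners are given in each direction. Coordinates are from the GRCm38 annotation and promoters from RefSeq (GRCm38.p6). Whether the mice of a group shared a litter or day is not given in the sources used here. In the tests of MI against healthy mice, p-values measure the spread between mice. Where a class was compared with the other classes, the mouse was a block. Those p-values measure the spread of class sums left after the level of each mouse is taken out.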

Additional observations from a re-analysis of the deposited data

Results flagged for a closer look

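Levels in all ECs were examined for a mouse far from the other 3 of its group, a rule that chance meets in about 1 in 20 groups, and 2 of 44 combinations of gene and group met it. In MI 256, Efnb2 measured 90.9 CPM, against 63.5 to 67.7 CPM in the other MI mice, and Epha4 measured 31.9 CPM, against 20.1 to 22.0 CPM. Both values lie toward those of the healthy mice. MI 256 also stood apart in the 6 lymphatic genes, at 267 CPM against 77 to 94 CPM in the other MI mice, and their part in these values was not tested. The MI difference of Plxnd1 varied among arterial, capillary, Apln-positive and venous cells by the interaction test (adjusted p = 0.0073), as did that of Ephb1 (adjusted p = 0.0296). The Ephb1 call was lost without Healthy 239, Healthy 240, MI 250 or MI 255 and with at least 2 marker UMIs (adjusted p = 0.175). It rests in part on arterial sums with 9 UMIs in healthy mice, and on venous sums that reached the filter minimum in 2 healthy mice. The Plxnd1 call was lost without Healthy 239 and in classes of thinned cells (adjusted p = 0.563), where Ephb1 could not be tested.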

How the results depend on the processing

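In all ECs, 7 of the 11 calls were kept under each setting in which the gene could be tested, the exceptions being Sema3g, Sema6a and Sema6b, lost without single mice, without Healthy 227 and 228 and under 1 further setting each (thinned cells for Sema3g and Sema6b, no TMM scaling for Sema6a), and Sema4c, lost in thinned cells. Under each setting, members that entered through 1 class or group, there or in the main test, were left out of the counts that follow. With no filter 9 members were higher in MI, and in thinned cells 2, where fewer genes were tested and Plxnb2 and Sema3d entered through the MI mice. Leaving out each mouse gave 4 to 5 higher and 4 to 9 lower members. Without Healthy 227 and 228, which held the copied cells, 4 were higher and 7 lower, a setting added after seeing the data. In classes of thinned cells, 8 members were called for arterial, 5 for capillary, 6 for Apln-positive, 5 for venous and 4 for Plvap-high cells, of 14 tested in place of 23. In healthy mice alone, 9 were called for arterial, 7 for capillary and 7 for Apln-positive cells. The small differences of Efnb1 in arterial cells (-0.0604) and of Epha4 in capillary cells (-0.104) changed sign. This setting also took Plvap-high cells out of the other classes, and the 2 changes cannot be told apart. By limma-voom 9 were called for Apln-positive cells. Leaving out each mouse gave 13 to 15 arterial, 10 to 14 capillary, 11 to 14 Apln-positive, 10 to 12 venous and 6 to 10 Plvap-high calls. Within classes the ranges were 4 to 5 in arterial, 3 to 6 in capillary, 0 to 3 in Apln-positive and 0 to 1 in venous cells, and 0 to 3 for the interaction. The 0 in Apln-positive cells came without Healthy 240, when 4 of 20 members had an unadjusted p under 0.05. Requiring 2 marker UMIs left 0 calls in Apln-positive cells (8 of 18 at an unadjusted p under 0.05), 0 in venous cells (0 of 7) and 1 interaction. Classes of thinned cells left 0 within arterial (1 of 14), 1 within capillary, 0 within Apln-positive (0 of 9), 0 within venous cells (0 of 4) and 0 interactions (1 of 14), each by edgeR. Keeping copied cells gave 4 interactions. The cause of these changes was not tested. No paired analysis was possible because the groups share no mouse number, and MI could not be compared within Plvap-high cells because no healthy mouse had 20 of them. Depth limits the low members and the healthy class sums.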
